A study of Mus musculus with 3 samples.

Results

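The genes described here are antiviral effectors that interferon is known to switch on, chosen as a list of 48 gene symbols with earlier results of these data known. Of these, 46 had a row among the 14293 genes of the expression table, and Ifitm1 and Rnf213 were not analysed here. RNA was measured by sequencing of polyadenylated RNA in F0, F1 and F10, cultured sublines of the B16 melanoma of C57BL/6J mice, with 1 library for each. All 3 grew in the same high-glucose medium with 8% serum for at most 10 passages after thawing, and the labels name no treatment with interferon or virus. F10 is widely used as a highly metastatic subline obtained by repeated selection in mice, and each library stands for 1 culture of 1 subline, without the immune cells of a tumour. With 1 library per subline there is no replicate error and no test, and a difference may belong to the subline, the culture or the library.

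Interferon binds its receptors on the cell surface and activates JAK kinases, which pass the signal to transcription factors. Type I interferon acts mainly through a complex holding IRF9 that binds interferon-stimulated response elements, and interferon gamma acts mainly through gamma-activated sites. The products block viral entry, translation and replication, and many are also made at a low level without added interferon.

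Melanocyte identity was clear in each library, with all 7 melanocyte markers read at 43.9 RPKM (reads scaled to transcript length and to the library's total) or more. Of 12 leukocyte markers, 5 were read and summed to 3.33, 3.45 and 3.29 RPKM in F0, F1 and F10. The highest of them were Cd68, at 2.09, 2.06 and 1.21 RPKM, and Lyz2, at 1.23, 1.37 and 1.78. The pan-leukocyte gene Ptprc was listed at 0 in F0 and F10 and at 0.0308 in F1. Fibroblast markers, of which 7 of 8 were read, summed to 5.38, 4.69 and 12.8 RPKM in F0, F1 and F10, and all 7 were highest in F10. Among these, Pdgfrb read 0.758, 0.148 and 3.34 and Dcn read 0.396, 0.445 and 2.62. In addition, 5 of 6 endothelial markers, all under 1 RPKM, summed to 0.374, 0.348 and 1.14. Their part in the differences below was not tested. Depth was estimated from the steps of low values, and a transcript of 1 kb at 1 RPKM held about 5.43, 6.33 and 5.33 fragments in F0, F1 and F10.

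Letters of both kinds of element were searched in the RefSeq windows around transcription starts (GRCm38.p6, 250 bases before to 50 after each start), which held 37 of the 46 genes. The core letters of the interferon-stimulated response element, GAAA and GAAA with any 2 bases (NN) between them, or on the other strand TTTC and TTTC spaced alike, stood in 18 of the 37 genes (48.6%), against 3.99% of the 27025 genes with a window. TTCNNNGAA, the core of the gamma-activated site and the same on either strand, stood in 10 of the 37 (27.0%) and in 9.55% of all genes. Both stood in 1 window in 7 genes (18.9%), against 0.54% of all genes, and their letters overlapped in Bst2, Ifitm3 and Shisa5. A match is a run of letters and does not show that a factor binds there. The stretches below run 5′ to 3′ along each gene's own strand and end at the last base before a start. They are shown for genes whose levels the results turn on, picked after values and matches were seen, and capitals mark either motif.
Isg15 (chr4:156200819-156200948, minus strand): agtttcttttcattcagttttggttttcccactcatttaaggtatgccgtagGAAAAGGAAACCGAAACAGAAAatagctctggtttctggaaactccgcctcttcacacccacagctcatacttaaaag
Ifit1 (chr19:34640759-34640888, plus strand): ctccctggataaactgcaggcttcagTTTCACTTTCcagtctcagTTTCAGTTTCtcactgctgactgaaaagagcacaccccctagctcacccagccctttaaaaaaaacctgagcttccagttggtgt
Ifit2 (chr19:34550564-34550693, plus strand): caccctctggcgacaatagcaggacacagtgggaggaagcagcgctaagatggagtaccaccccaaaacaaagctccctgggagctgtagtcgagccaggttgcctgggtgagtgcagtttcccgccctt
Oas1a (chr5:120907526-120907655, minus strand): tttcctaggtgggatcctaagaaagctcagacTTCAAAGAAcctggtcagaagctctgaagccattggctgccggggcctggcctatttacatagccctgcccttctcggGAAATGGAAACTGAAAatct
Igtp (chr11:58199426-58199555, plus strand): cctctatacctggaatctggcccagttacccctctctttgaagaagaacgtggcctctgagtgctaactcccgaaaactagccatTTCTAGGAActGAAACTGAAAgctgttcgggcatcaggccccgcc
Irgm2 (chr11:58214847-58214976, plus strand): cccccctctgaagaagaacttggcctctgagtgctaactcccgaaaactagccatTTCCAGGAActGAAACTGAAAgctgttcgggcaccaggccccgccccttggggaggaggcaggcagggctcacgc
Gbp7 (chr3:142530206-142530335, plus strand): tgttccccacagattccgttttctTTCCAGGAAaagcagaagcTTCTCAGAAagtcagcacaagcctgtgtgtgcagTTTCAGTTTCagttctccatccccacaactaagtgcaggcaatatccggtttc
Bst2 (chr8:71537473-71537612, minus strand): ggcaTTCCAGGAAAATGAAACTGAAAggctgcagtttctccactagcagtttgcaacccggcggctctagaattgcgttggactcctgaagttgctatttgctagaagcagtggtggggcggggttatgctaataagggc
In Isg15, which codes for a ubiquitin-like protein, 3 matches overlap in a single run beginning 78 bases before the start. Ifit1 and Ifit2, of the same gene cluster, differ here, with 2 response-element matches in Ifit1 and no capitals in the Ifit2 stretch, whose window holds 1 match of TTCNNNGAA farther upstream. Igtp and Irgm2, GTPase genes side by side on chromosome 11, are alike at 94 of 100 aligned bases and hold both motifs next to each other, and in Bst2 the motifs overlap.

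**Figure D1:**
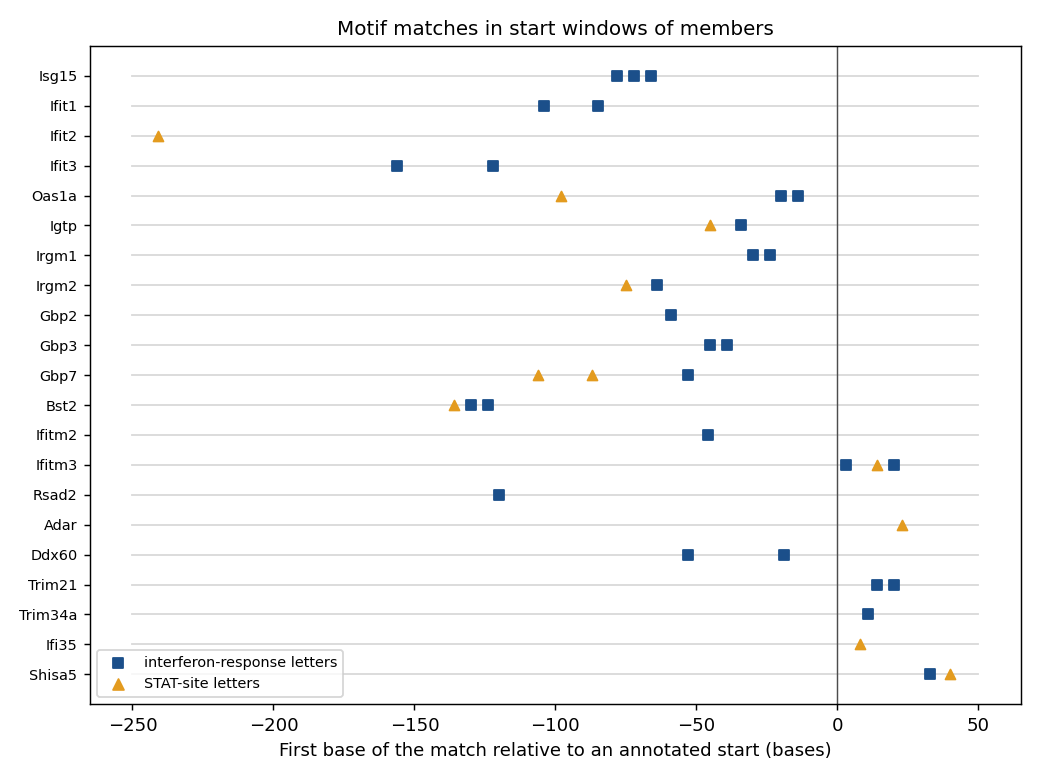
First base of each motif match (horizontal axis, bases from an annotated transcription start) for the 21 genes with at least 1 match. Squares are the letters of the interferon-stimulated response element and triangles those of the gamma-activated site; 14 of 37 genes have a square within 150 bases before a start, against 1.85% of all genes.

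Between F0 and F10, the 2 ends of the series, most effector genes differed one way. Of the 46 genes, 45 read lower in F10 than in F0, and Iigp1 was level at 0.0632 RPKM in F0 and 0.0639 in F10, on 1 estimated fragment each. The 46 include 7 that stayed under 1 RPKM in every library, and the like share over all 14293 genes is not given here. In bulk RNA, fewer expressing cells and less RNA per cell cannot be told apart. Genes with at least 1 RPKM in at least 1 library were compared on the scale of log2(RPKM + 1), which understates differences of low genes, and 39 of the 46 were among these 10701 genes. Among them 25 were at least 2-fold lower in F10 (64.1%), where 1.61% of all compared genes were, and none was at least 2-fold higher, where 1.54% of all were. The median difference was -1.17, against -0.01 over all compared genes. Because the list was chosen with earlier results known, these contrasts describe it and are no test. Of the 39, 25 reached 1 RPKM in every library. The others passed only through the libraries where they were high, which favours a lower reading elsewhere. Uba7 and Oasl2 reached 1 RPKM in F0 alone, so the filter fixed their direction. When a mean of at least 1 RPKM over the libraries was required instead, 24 of 37 were at least 2-fold lower (1.45% of all genes kept). A high F0 level can carry a gene past that filter too. A counting interval of the RPKM ratio that left out 1 was found for 32 of the 39 on the lower side, and for 18.1% of all compared genes of known length. By any amount all 39 read lower, as 51% of all compared genes did. Among the 100 compared genes with the most negative differences on this scale, 18 were effector genes of this list, and 7 were among the first 20.

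Low genes scatter more, so the share was also read by level. At a mean under 10 RPKM, 17 of 26 effector genes were at least 2-fold lower in F10, against 2.29% of all genes of that level. Between 10 and 50 RPKM the count was 5 of 9, against 0.788%, and at 50 RPKM and over it was 3 of 4, against 1.51%. The share was high at each level.

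**Figure D2:**
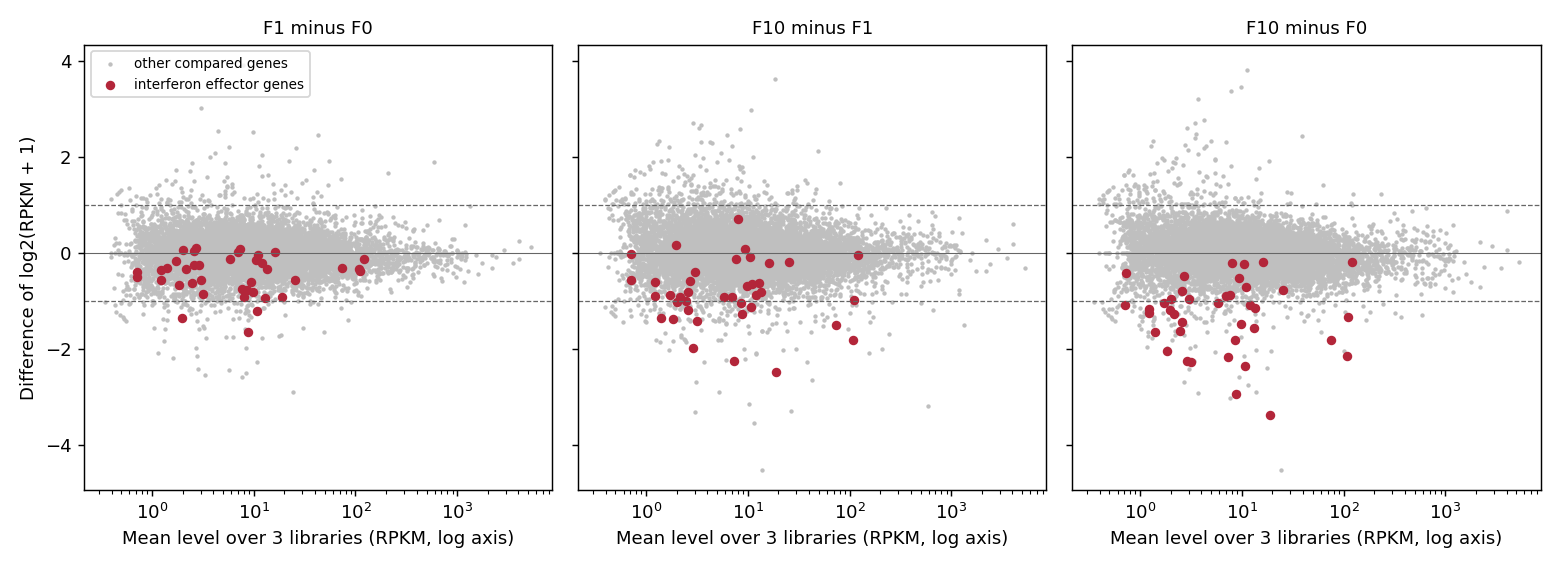
Difference of log2(RPKM + 1) for each pair of libraries (vertical axis) against the mean level over the 3 libraries (horizontal axis, RPKM, log scale), with effector genes in red, other compared genes in grey and dashed lines at a difference of 1 either way. In the right panel all 39 red points lie below 0 and 25 lie at or below the lower dashed line; in the left panel 3 do.

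By the median difference, F1 lay closer to F0 than to F10. Against F0, 33 of the 39 read lower in F1 (50.8% of all compared genes did), but 3, namely Ifit1, Ifit3 and Cmpk2, were at least 2-fold lower, where 1.02% of all genes were. None was at least 2-fold higher (0.972% of all genes). The median difference was -0.35, and 20 read lower with a counting interval that left out 1 (17.6%). Between F1 and F10, 14 were at least 2-fold lower in F10 (1.92% of all genes) and none was at least 2-fold higher (2.07%), with a median of -0.88. By any amount 36 read lower in F10 (51.1%), and 27 did so with an interval that left out 1 (19.5%). With a pseudocount of 0.1 in place of 1, at least 2-fold lower levels than in F0 were found in F1 for 5 genes (2.93% of all compared genes), and lower levels than in F1 were found in F10 for 22 (3.31%). The order F0 over F1 over F10 held for 30 of the 39 genes, and for 17.5% of all compared genes. F10 was the lowest library in 36 (36.5% of all genes) and F1 in 3, which were Cmpk2, Herc6 and Pml (33.3%). These pairs share libraries, so they are not independent of each other.

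**Figure D3:**
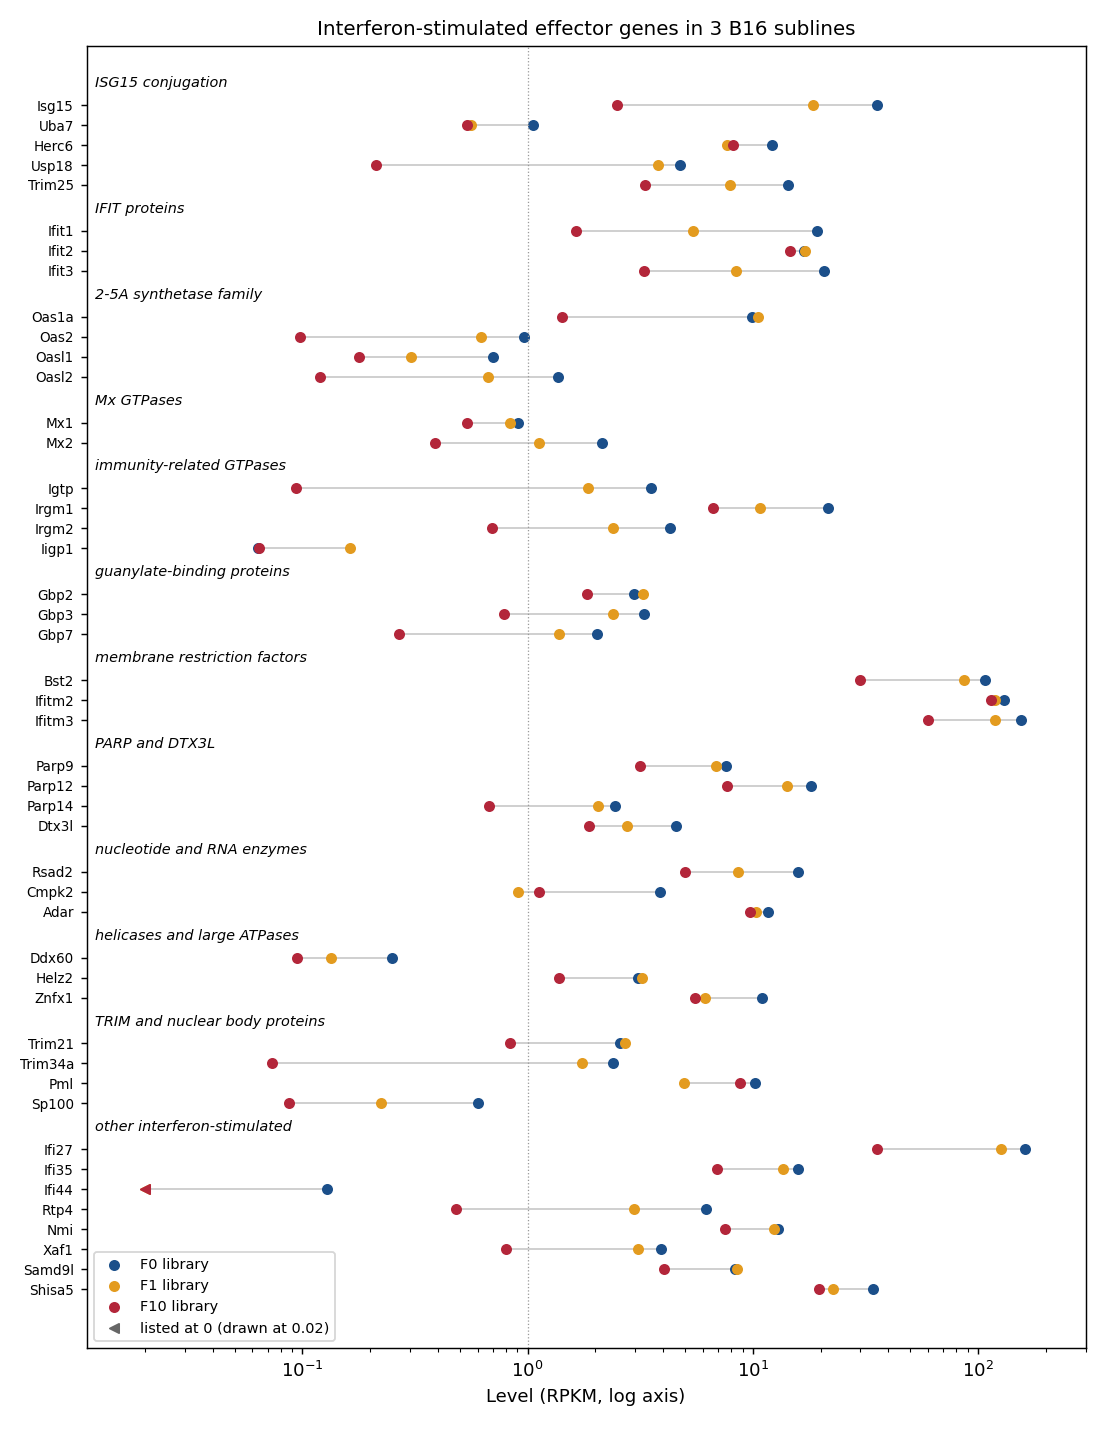
Level of each of the 46 genes (horizontal axis, RPKM, log scale) in F0 (blue), F1 (orange) and F10 (red), grouped by role, with 1 point per library. F10 stands at the left in most rows, the exceptions are Iigp1, Pml, Cmpk2 and Herc6, and Ifi44 is listed at 0 in both F1 and F10, whose markers coincide.

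ISG15 is joined to other proteins by a chain of enzymes. Of 5 listed genes of this group, 3 were at least 2-fold lower in F10 than in F0 (1.61% of all compared genes). These were Isg15, Usp18 and Trim25, and not the activating enzyme Uba7 or the ligase Herc6. Isg15 itself (chromosome 4, 156199424 to 156200818, GENCODE M21 on GRCm38) read 35.5, 18.5 and 2.49 RPKM in F0, F1 and F10. F10 was far below both other libraries, and F1 stood at 51.9% of F0. Its F0 level was 14.2 times that of F10 (95% counting interval 7.15 to 28.9). On the log2(RPKM + 1) scale its difference of -3.39 was the second most negative of all compared genes, but by the plain ratio, or with a pseudocount of 0.1, Igtp, Usp18 and Trim34a, each with 1 estimated fragment in F10, lay further apart. Usp18, the protease that takes ISG15 off again and restrains the type I receptor, read 4.74, 3.80 and 0.213 RPKM. F0 and F1 were close together here, and the ratio of F0 to F10 of 22.3 (4.54 to 1124) rests on 1 estimated fragment in F10. Trim25, a ubiquitin ligase that also acts on the RNA sensor RIG-I, read 14.3, 7.93 and 3.32, a ratio of 4.30 (3.44 to 5.41). The ligase and the activating enzyme of the list differed less. Herc6, the main ISG15 ligase in mice, read 12.2, 7.68 and 8.18 RPKM, so F1 and F10 were alike and both below F0. Uba7, the activating enzyme, read 1.06, 0.558 and 0.536, and its F0 to F10 ratio of 1.98 had an interval (0.837 to 4.96) that includes 1. Ube2l6, the conjugating enzyme of the same chain, was not on the list and was picked after its values were seen. It read 18.02, 8.90 and 7.75 RPKM, low in F1 and F10 alike, and was at least 2-fold lower in F10 than in F0 (difference -1.12).

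IFIT proteins bind viral RNA ends and form complexes with each other, and their 3 genes lie in a row on chromosome 19 (34550694 to 34650009). Ifit1 read 19.2, 5.41 and 1.64 RPKM in F0, F1 and F10. F1 was below F0 and F10 below F1, and the F0 to F10 ratio was 11.7 (7.60 to 18.7). Ifit3 read 20.8, 8.39 and 3.29 in the same order, a ratio of 6.33 (4.28 to 9.61). Its near-identical copy Ifit3b, listed in the table under an older name, read 6.41, 2.18 and 0.390, so reads may be shared between the copies. Ifit2 stood apart from its neighbours. It read 16.8, 17.0 and 14.7 RPKM, and its F0 to F10 ratio of 1.15 had an interval of 0.935 to 1.42. The 3 genes were thus at similar levels in F0, and in F10 Ifit2 was the highest of them.

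Oligoadenylate synthetases make the short RNA chains that activate RNase L, which cuts RNA. Oas1a read 9.93, 10.6 and 1.42 RPKM in F0, F1 and F10. F1 was level with F0 (ratio of F0 to F1 0.94, interval 0.72 to 1.24), and F10 was lower by a ratio of 6.999 (3.99 to 13.3). Its close copy Oas1g, which was not on the list, had the same shape at 3.13, 3.26 and 0.263, and reads may be shared. The related Oasl2 read 1.37, 0.665 and 0.120 on an estimated 6 fragments or fewer, and its interval (0.714 to 271) includes 1. At the length used, 856.5 bases, 3 fragments were worth 0.689 RPKM in F10, so 0.120 is less than 1 fragment. That length may be too short, which would make the fragments too few and the interval too wide. Oas2 and Oasl1 stayed under 1 RPKM in each library, with Oas2 at 0.965, 0.622 and 0.0975.

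The GTPases of this response act on viruses or on the vacuoles of intracellular pathogens. Irgm1 (chromosome 11, 48861968 to 48871683) read 21.6, 10.8 and 6.69 RPKM, and most of its difference was between F0 and F1. Its F0 to F10 ratio was 3.23 (2.49 to 4.23). Igtp read 3.54, 1.86 and 0.0932, the last on 1 estimated fragment, and its ratio was 38.0 (5.60 to 1356). Irgm2 read 4.28, 2.40 and 0.697, a ratio of 6.14 (3.34 to 11.8). Igtp and Irgm2 overlap on the same strand in the annotation, so their reads may not be cleanly divided. Iigp1, a further member of this family, was at the level of 1 to 3 fragments in each library. Of the guanylate-binding proteins, Gbp7 read 2.03, 1.37 and 0.269 RPKM and Gbp3 read 3.29, 2.39 and 0.783, both highest in F0 and lowest in F10. Gbp2 read 2.96, 3.27 and 1.84, and its interval for F0 over F10 (0.962 to 2.84) includes 1. These genes lie in a row of similar copies on chromosome 3. Mx2 read 2.13, 1.13 and 0.389 RPKM, and Mx1 read 0.906, 0.832 and 0.54. Mx proteins trap viral nucleocapsids, but the annotation lists Mx2 as a polymorphic pseudogene, and the Mx genes of common laboratory strains are known to be defective.

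**Figure D4:**
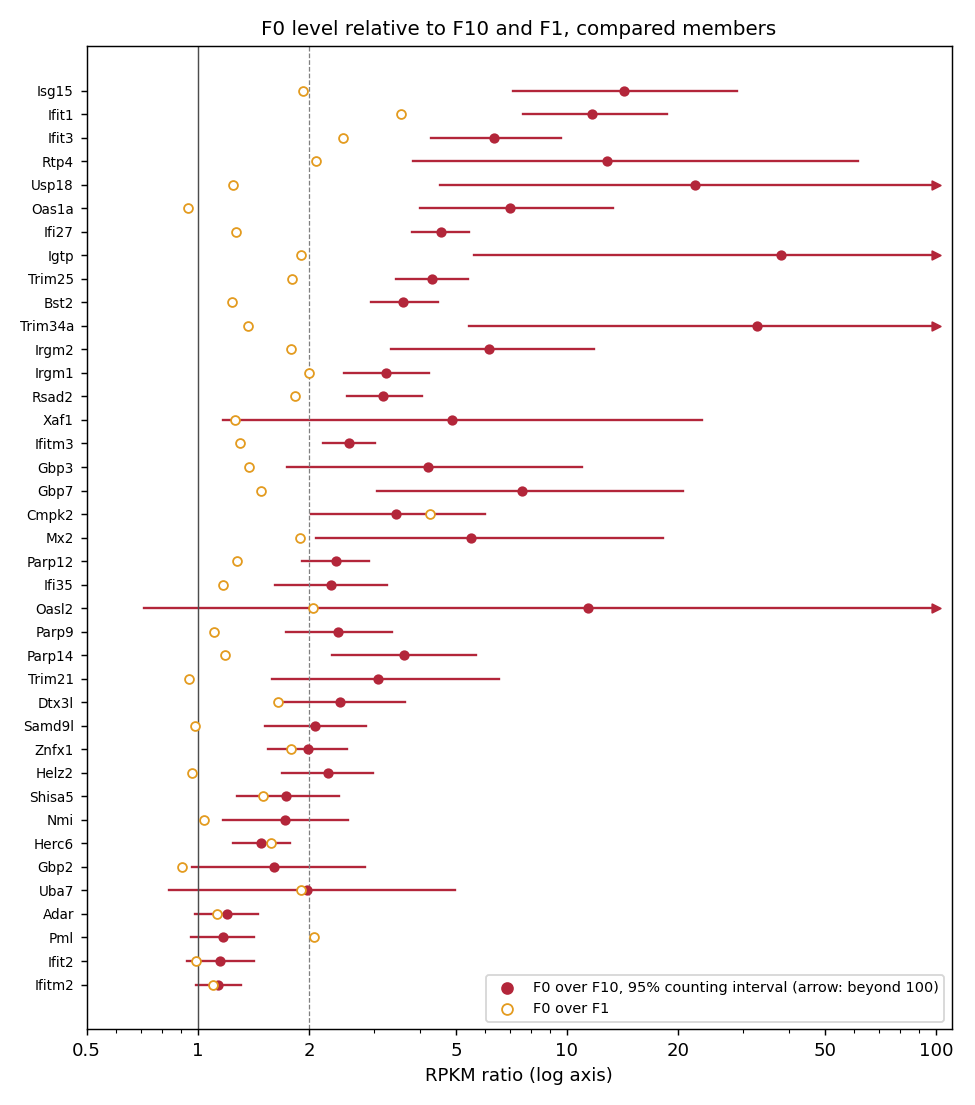
RPKM ratio of F0 to F10 (filled red points, bars are 95% counting intervals, arrows run beyond 100) and of F0 to F1 (open orange circles) for the 39 compared genes, on a log scale, ordered by the F10 minus F0 difference. Isg15 stands first with a ratio of 14.2, Ifit2 and Ifitm2 lie near 1 at the bottom, and the longest bars belong to genes with 1 estimated fragment in F10.

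Membrane proteins that hold back viruses were the most abundant of the list, and with Ifi27 they made up 61.0% of its summed RPKM in F0. Bst2, tetherin, which ties budding virus to the cell surface (chromosome 8, 71534255 to 71537456), read 107, 86.5 and 29.8 RPKM in F0, F1 and F10. F10 was well below the other 2 libraries, and its level in F0 was 3.60 times as high (2.94 to 4.46), on 119 fragments in F10. Ifitm3, which blocks fusion of viruses in endosomes, read 155, 119 and 60.2, a ratio of 2.57 (2.18 to 3.03). Ifitm2, its neighbour on chromosome 7, read 130, 118 and 114 RPKM. That is a ratio of 1.14 (0.987 to 1.31), so in F10 Ifitm2 exceeded Ifitm3 while in F0 Ifitm3 was the higher. The Ifitm genes resemble each other closely, and shared reads would be divided by the authors' counting. Ifi27, a small membrane protein, read 161, 127 and 35.4 RPKM, a ratio of 4.55 (3.81 to 5.44) on 155 fragments in F10. Without Ifi27, Ifitm2, Ifitm3 and Bst2 the list summed to 354, 234 and 133 RPKM in F0, F1 and F10.

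PARP9 and DTX3L form a complex of an ADP-ribosyltransferase family protein and a ubiquitin ligase. Parp9 read 7.57, 6.84 and 3.15 RPKM and Dtx3l read 4.55, 2.75 and 1.87, both lowest in F10. Their genes overlap on opposite strands of chromosome 16, as do Adar and Chrnb2 on chromosome 3 and Rtp4 and Masp1 on chromosome 16. The kit keeps strand, but the sources used here do not say whether strand was used in counting, so these levels are uncertain. Parp14, an enzyme that adds single ADP-ribose units, read 2.44, 2.06 and 0.676, a ratio of 3.62 (2.31 to 5.67). Parp12, of the same kind, read 18.2, 14.2 and 7.70, a ratio of 2.36 (1.92 to 2.92). In Parp9, Parp12 and Parp14 the larger step was from F1 to F10.

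The remaining enzymes differed in pattern. Rsad2, viperin, which makes a chain-terminating nucleotide, read 15.8, 8.60 and 4.98 RPKM. Cmpk2, its neighbour on chromosome 12 and a mitochondrial nucleotide kinase, read 3.86, 0.905 and 1.12. Its F1 and F10 levels were alike, and its F0 to F1 ratio of 4.26 (2.51 to 7.64) exceeded that of Rsad2, which was 1.84 (1.54 to 2.20). Adar, which edits adenosine in double-stranded RNA and is also made from a promoter that does not need interferon, was nearly level at 11.6, 10.3 and 9.70. Its F0 to F10 ratio of 1.20 had an interval of 0.984 to 1.46. The helicase genes Helz2 (3.10, 3.20 and 1.38 RPKM) and Znfx1 (11.02, 6.16 and 5.56) were both lower in F10 than in F0, but F1 was level with F0 in Helz2 and level with F10 in Znfx1. Ddx60 was at 0.249 RPKM or less.

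Trim21, a cytosolic receptor for antibody bound to virus, read 2.56, 2.70 and 0.831 RPKM, lower in F10 alone. Trim34a read 2.39, 1.74 and 0.073, the last on 1 fragment, and has a near-identical copy. Pml, which builds nuclear bodies, had a pattern of its own. It read 10.2, 4.95 and 8.76 RPKM in F0, F1 and F10, so F1 was the low library. The ratio of F0 to F1 was 2.07 (1.66 to 2.58), and that of F0 to F10 was 1.17 (0.961 to 1.42). Pml was the only one of the 39 that was higher in F10 than in F1 with a counting interval that left out 1, which 18.6% of all compared genes of known length were. Sp100, another nuclear body protein, was at 0.605, 0.223 and 0.0873 RPKM.

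Among the others, Rtp4, known to dampen interferon responses in mice, read 6.16, 2.96 and 0.479 RPKM, a ratio of 12.9 (3.83 to 61.4) on 3 fragments in F10. Xaf1, an antagonist of an apoptosis inhibitor, read 3.91, 3.10 and 0.798. Samd9l, which restricts poxviruses and slows translation, read 8.36, 8.52 and 4.03, with F0 and F1 alike. Ifi35 and Nmi bind each other. Ifi35 read 15.9, 13.6 and 6.93 RPKM and Nmi read 12.9, 12.4 and 7.52, F10 being the low library in both. Shisa5, an endoplasmic reticulum protein also induced by p53, read 34.2, 22.7 and 19.7, with F1 near F10. Ifi44 read 0.128 RPKM in F0 and was listed at 0 in F1 and F10. The 7 genes under 1 RPKM in every library (Oas2, Oasl1, Mx1, Iigp1, Ddx60, Sp100 and Ifi44) together held 50 estimated fragments in F0 (95% Poisson interval 37.1 to 65.9), 36 in F1 (25.2 to 49.8) and 13 in F10 (6.92 to 22.2).

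Where F1 stood between F0 and F10 varied from gene to gene among the 25 that were at least 2-fold lower in F10. By F1, the difference from F0 had reached a median of 28.1% of its size in F10, on the log2(RPKM + 1) scale. It was over 50% in 5 genes, which were Cmpk2 (113%), Irgm1 (60.3%), Ifit1 (56.5%), Rsad2 (54.2%) and Ifit3 (51.7%). At the other end were Parp9 (12.3%), Usp18 (11.5%) and Oas1a, whose F1 level was above F0. Among all 172 compared genes at least 2-fold lower in F10, the median was 34.1% and 63 were over 50%. It was under 10% in 32 of the 172, of which 29 had F1 above F0, and in 1 of the 25 effector genes, which was Oas1a.

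**Figure D5:**
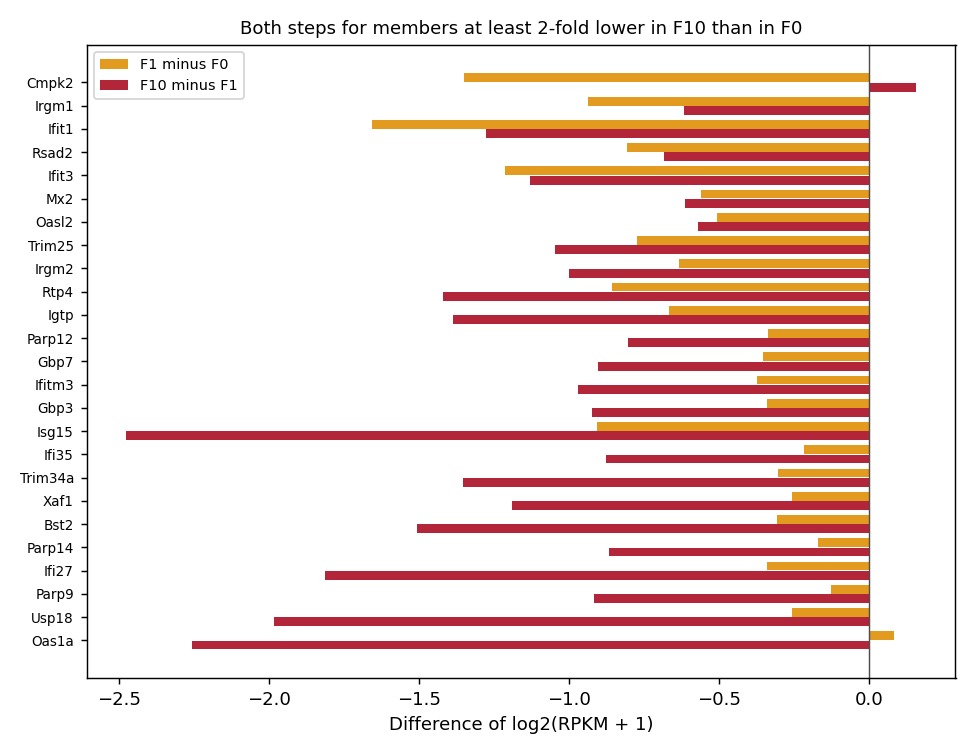
Difference of log2(RPKM + 1) from F0 to F1 (orange) and from F1 to F10 (red) for the 25 genes at least 2-fold lower in F10 than in F0, ordered by how much of the difference was present in F1. For most genes the red bar is longer, for Cmpk2 it points the other way, and for Oas1a the orange bar does.

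The 33 compared genes with a promoter window were also set side by side by motif. Those without a window (Usp18, Mx2, Rtp4, Ifi27, Parp9 and Parp14) were all at least 2-fold lower in F10 and are in neither set, which could shift the contrast. The 17 with the response-element letters had a median F10 minus F0 difference of -1.56 and 13 were at least 2-fold lower. The 16 without the letters had a median of -0.89 and 6 were, where 1.61% of all compared genes were. The ranges overlapped, from -3.39 to -0.18 in the first set and from -1.82 to -0.19 in the second. Ifitm2 holds the letters and was nearly level across the libraries, and Trim25 holds none in the window and was 4.30 times higher in F0 than in F10. For F1 against F0 the medians of both sets were -0.37. Split by TTCNNNGAA, the 10 genes with it had a median F10 minus F0 difference of -1.30 and the 23 without it -1.08, and for F1 against F0 the order was the other way, at -0.33 with it and -0.51 without.

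Genes next to the effector genes on the chromosome were little different between F10 and F0. The nearest compared genes on either side that belong to no interferon list were taken. Over all pairs of an effector gene and such a neighbour, the median distance was 86037 bases, and the longest was 2740367 bases, between Ifi44 and Lphn2. Counted once each, the neighbours came to 66 distinct genes. Their median F10 minus F0 difference was 0.00, and 1 of them, B4galnt4, was at least 2-fold lower (1.52%), near the share of all compared genes. For Isg15 these neighbours were Agrn, at 10.6 RPKM in F0 and 10.1 in F10, and AW011738, at 0.747 and 0.618. The neighbours named here were picked after their values were seen. For the Ifit genes they were Lipa, a lysosomal lipase at 102, 58.8 and 61.4 RPKM in F0, F1 and F10, and Pank1, at 2.18, 1.88 and 2.24. For Bst2 they were Gtpbp3 (2.20 RPKM in F0, 3.30 in F10) and Mvb12a (38.5 and 46.1), both higher in F10.

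Upstream of these genes in the pathway, the 15 compared receptors and signalling proteins had a median F10 minus F0 difference of -0.03. None was at least 2-fold apart, where 1.61% of all compared genes were lower and 1.54% higher, so finding none is near the background. The receptor chains Ifnar1 (11.6, 11.5 and 10.3 RPKM in F0, F1 and F10) and Ifnar2 (15.6, 13.5 and 12.6) were close in all 3 libraries, and were named outside the rule. Stat2 (5.77, 4.74 and 2.62) was lowest in F10 and came near the threshold. Its difference was -0.905, on 137 estimated fragments in F0 and 61 in F10. Among the larger differences were also those of Jak1 (16.8, 19.1 and 24.3) and Ifngr1 (4.98, 5.27 and 7.45), both highest in F10. Of the 16 compared transcription factors and nucleic acid sensors, 6 were at least 2-fold lower in F10 than in F0 (1.61% of all compared genes) and none higher (1.54%), with a median of -0.40. The largest were Dhx58, an RNA-binding regulator of sensors, at 5.57, 4.19 and 0.703 RPKM, and Ddx58, Irf9 and Irf7. Irf9, the DNA-binding part of the type I complex, read 9.88, 9.88 and 2.88, so it was level in F0 and F1.

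Of 25 compared interferon-stimulated genes and family copies outside the list, 8 were at least 2-fold lower in F10 than in F0 (1.61% of all compared genes) and none higher (1.54%), with a median of -0.54. Lgals3bp, a secreted galectin-binding protein, read 167, 96.8 and 39.8 RPKM. Trim12a read 2.32 and 1.26 in F0 and F1 and was listed at 0 in F10. Of the 25, 18 read lower in F10 by any amount, as 51% of all compared genes did.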

How the data were processed

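RNA of F0, F1 and F10 was sequenced from polyadenylated RNA with a stranded kit, 1 library each. Tools named in the submitters' processing notes are TopHat, Bowtie2, Cufflinks and bcl2fastq, with the build mm10. Versions, roles and settings were not given in the sources used here. In the form analysed, the deposited table holds RPKM values made by the authors, and an authors' score per pair of libraries, which was not used. An exact 0 in such a table can be a failed estimate. Rows whose symbol had become a date (20 of 14313, with 0.174% of all RPKM) were left out. Groups came from the subclone labels.

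Genes with at least 1 RPKM in at least 1 library were compared by differences of log2(RPKM + 1), and at least 2-fold means a difference of at least 1. Fragments were estimated from 1392 genes with a single transcript, 800 bases or longer. Their low values, multiplied by length minus 40 bases, clustered at a common step taken as 1 fragment (75.5% of 486 values lay within 5% of it). Fragments per gene then came from RPKM and the median length of a gene's protein-coding transcripts, or of all its transcripts where none is coding (GENCODE M21 on GRCm38, the assembly of mm10). A length was found for 99.1% of genes, with 528 matched by older symbols. RPKM ratios have 95% exact Clopper-Pearson intervals from these estimates. Intervals are approximate and cover counting error only. The floor of 3 fragments for a 1 kb transcript was 0.552, 0.474 and 0.562 RPKM in F0, F1 and F10. Calculations used Python 3.11.15, numpy 2.4.6, pandas 2.3.3 and scipy 1.17.1, and were tested on simulated data. The simulation used the same step and gene lengths, so it cannot show errors in those.

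The genes, role groups and other lists were chosen with earlier results of these data known. Every listed gene with a row is accounted for. Described most fully are the 8 with the largest difference in each pair, those of at least 50 RPKM, those listed at 0 and those with F1 and F10 on opposite sides of F0. Outside the list, genes were named as the 4 largest differences of each pathway list, and neighbours and exceptions as stated. One result that this rule would name is not reported here. Alternatives were other pseudocounts, filters, scalings and fold thresholds, subtraction of the median of 20 GC bins, and leaving out genes with near-identical copies or few fragments.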

Additional observations from a re-analysis of the deposited data

How the results depend on the processing

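No result turned its direction under any alternative tried, and the libraries rescaled to the same RPKM sum, divided by median ratios or corrected for GC content kept every count within 1.5 times, the order F0, F1, F10 included. No scaling moved the median of all genes by over 0.1. With a pseudocount of 0.1 the median differences were -1.68 for F10 against F0 and -1.16 for F10 against F1, and 5 genes were at least 2-fold lower in F1 than in F0 (2.93% of all compared genes) and 22 in F10 than in F1 (3.31%). A smaller pseudocount shrinks the differences of low genes less, by construction. With a filter of 5 RPKM, which left 23 of the genes, 14 were at least 2-fold lower in F10 than in F0 (1.26% of all genes kept) and 8 in F10 than in F1 (1.74%), and 18 stood in the order F0, F1, F10 (18.4%). At a threshold of 1.5-fold, 13 were lower in F1 than in F0 (5.68% of all compared genes), 28 were lower (7.20%) and 1 higher (8.27%) in F10 than in F1. At 4-fold, 8 were lower in F10 than in F0 (0.234%), 0 in F1 than in F0 (0.0934%) and 2 in F10 than in F1 (0.215%). Leaving out genes with a near-identical copy left 28, of which 16 were at least 2-fold lower in F10 than in F0 (1.61%). By construction, the filter and the removal of copies leave fewer genes, and 1.5-fold and 4-fold are other thresholds. No paired analysis was possible because each subline has 1 library. Few fragments limit the low genes: 10 of the 39 compared had under 10 estimated fragments in F10, against 1 in F0. Depth was similar in these libraries, with a median of 116 fragments per compared gene in F10 and 119 in F0. The share of all compared genes under 10 fragments is not given here.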

Other observations

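Interferon-stimulated genes and family copies outside the list that stayed under 1 RPKM in every library numbered 28, of which Gbp6 and Ifi204 are given below, picked after their values were seen. Together they held 48 estimated fragments in F0 (95% Poisson interval 35.4 to 63.6), 29 in F1 (19.4 to 41.6) and 9 in F10 (4.12 to 17.1). Of the 28, 18 read higher in F0 than in F10 and 7 read lower. Among the 18 were Gbp10, Trim34b and Mnda, at 8.35e-15 RPKM or less in F0 on 0 estimated fragments. Their direction carries no weight, and the share over all genes under 1 RPKM is not given here. Gbp6 read 0.691 RPKM in F0 and 0.149 in F1 and was listed at 0 in F10. Ifi204, a DNA-binding protein of the interferon response, read 0.406 and 0.0699 and was likewise listed at 0 in F10.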
